A study of Mus musculus with 8 samples.

Results

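The cytosolic heat shock proteins described here are encoded by 10 genes, chosen by symbol from the 24516 genes of the count table. They are the HSP70 genes Hspa1a, Hspa1b and Hspa8, the HSP90 genes Hsp90aa1 and Hsp90ab1, the HSP110 gene Hsph1, the J-protein genes Dnajb1 and Dnaja1, the small heat shock protein gene Hspb1 and the regulator gene Hsf1. All 10 are in the table, and 8 passed the filter on low counts that left 7667 genes for testing. Hspb1 and Hsf1 did not pass and are given by their counts. RNA was sequenced from macrophages sorted by FACS from mouse hearts, in 4 libraries of endocardially derived cells (EcTM, named E591, E592, E604 and E606) and 4 libraries of macrophages without that origin (non-EcTM, named N591, N592, N604 and N606). Both groups came from C57BL/6 mice at postnatal day 28 whose genotype is given as Nfatc1Cre/+ with Rosa26Tomato reporter/+, so the controls carry the same Cre and reporter alleles. Cre here is driven from Nfatc1, a gene of the endocardium, and no source used here gives the markers and gates of the sort. Each EcTM library has a non-EcTM library with the same digits in its name, such as E591 with N591, and such libraries are called a pair. What the digits stand for (an animal, a litter or a day) is not in the labels, and p-values therefore measure the spread between these libraries, which may be technical.

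Chaperones of the HSP70 family bind unfolded stretches of protein and release them in a cycle driven by ATP. J proteins bring clients to HSP70 and start ATP hydrolysis, HSP110 exchanges its nucleotide, and HSP90 takes over many clients at a late stage of folding. Hspa8, Hsp90ab1 and Dnaja1 are made all the time in most cells, whereas Hspa1a, Hspa1b, Dnajb1, Hsph1, Hspb1 and Hsp90aa1 are transcribed strongly when the transcription factor HSF1, encoded by Hsf1, is released by protein damage. Preparing and sorting cells from solid tissue is a known inducer of this response.

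No member passed the test between EcTM and non-EcTM. In the same test 1 of 7667 genes passed (0.013%), so the lack of a call is not a result about these members. Differences in Hspa1a and Hspa1b were larger between pairs. Hspa1a and Hspa1b were highest in E591 and in N591, at 1054 to 1219 CPM (a count unit that takes out library size), and were at 629 CPM or less in the other 6 libraries. From the lowest to the highest of the 8 libraries, Hspa1a spanned 2.60-fold and Hspa1b 2.79-fold. The constitutive genes Hspa8, Hsp90ab1 and Dnaja1 spanned 1.34-fold, 1.29-fold and 1.502-fold, and the inducible Hsp90aa1 and Dnajb1 spanned 1.38-fold and 2.00-fold. The inducible Hsph1 and Hspb1 spanned more, 5.24-fold and 14.2-fold, but on at most 46 and 14 reads a library. In bulk samples a lower level in each cell and fewer cells with a high level cannot be told apart.

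The proximal promoters of the gene pair that moved together are shown first. Hspa1a (Entrez 193740, chr17:34969359-34972156, GRCm38, minus strand) and Hspa1b (Entrez 15511, chr17:34956429-34959238, minus strand) lie in the same stretch of chromosome 17. The 250 bases before each annotated start, from RefSeq on GRCm38.p6, read as follows 5′ to 3′, with capitals marking a pair of inverted units of the heat shock element, the site class that HSF1 binds.
Hspa1a, chr17:34972157-34972406: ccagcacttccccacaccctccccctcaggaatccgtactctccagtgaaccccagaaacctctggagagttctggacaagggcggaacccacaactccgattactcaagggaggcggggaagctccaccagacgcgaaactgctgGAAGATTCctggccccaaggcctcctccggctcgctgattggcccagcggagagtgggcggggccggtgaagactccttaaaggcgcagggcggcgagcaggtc
Hspa1b, chr17:34959239-34959488: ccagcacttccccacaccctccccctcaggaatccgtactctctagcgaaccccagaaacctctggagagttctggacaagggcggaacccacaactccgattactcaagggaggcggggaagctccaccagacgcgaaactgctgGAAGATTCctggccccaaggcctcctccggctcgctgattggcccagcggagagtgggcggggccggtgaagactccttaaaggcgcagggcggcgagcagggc
The windows are equal at 247 of 250 positions (98.8%). Counted from 1 at the 5′ end of the window, Hspa1b differs from Hspa1a by C44T, T47C and T249G, all outside the capitals. The marked letters stand at -104 to -97 from the start in both genes.

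The RefSeq table held promoters for 6 of the 10 members, and Hspa8, Hsp90aa1, Hsp90ab1 and Hsf1 are named only. The letters searched were GAANNTTC or TTCNNGAA, each of which reads the same on either strand, so that 1 search covers both. Of these 6 genes, 5 had a match in at least 1 window, and Dnajb1 had none in its 2 windows. The stretches around the matches in the other members are printed to show how far from the start the units lie.
Hsph1, chr5:149636356-149636375, minus strand: gaatctTTCTCGAAggctcg
Hspb1, chr5:135887796-135887835, plus strand: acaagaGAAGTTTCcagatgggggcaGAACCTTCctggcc
Dnaja1, chr4:40722338-40722357, plus strand: cctctaGAAAATTCtacgag
In Hsph1 the letters stand at -54 to -47 from one annotated start and at -33 to -26 from the other. Hspb1 has 2 matches, at -117 to -110 and at -97 to -90. In Dnaja1 the match is in 1 of 3 windows, at -124 to -117. The same letters occur in 4218 of 32851 windows of this length (12.8%), belonging to 3932 of 27025 genes (14.5%). Elements of 3 such units at the same spacing, which contain the shorter letters, occur in 153 windows (0.466%) and in 0 of the members' windows. Only exact letters were searched, so elements with an altered unit are not counted here, in Dnajb1 or in any other member. A match is a description of letters and not a bound site.

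The sequence of the transcripts bears on how the pair can be counted. Over their longest reading frames, Hspa1a and Hspa1b were identical at 99.4% of aligned bases, and 82.3% of the 50-base words of Hspa1a also occur in Hspa1b. Hspa1a and Hspa8 were 73.9% identical and Hsp90aa1 and Hsp90ab1 75.3%, with 0% of 50-base words shared in either pair. No source used here says whether reads that fit both Hspa1a and Hspa1b were assigned to one gene, dropped or counted at both. The level of each gene of this pair is therefore uncertain, and so is their sum.

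Gene counts summed to between 2152425 and 2576407 in the EcTM libraries and to between 2281657 and 2937464 in the non-EcTM libraries. At this depth 3 counts correspond to 1.02 to 1.39 CPM, which covers counting error only. Genes with several transcripts had lower totals in this table than genes with 1: among protein-coding genes with 1, 2 and at least 3 curated RefSeq transcripts, the median total count over the 8 libraries was 18, 7 and 7. Hspa1a, Hspa1b, Hspb1, Hsp90aa1 and Hsp90ab1 have 1 curated transcript, and the other 5 members have several. Summed macrophage markers, 13 of 14 of them tested and Itgam at 0, lay between 30876 and 31451 CPM over EcTM libraries and between 28698 and 31134 CPM over non-EcTM libraries. Xist had 1 count in E592 and 8 in N592, where the Y-linked Ddx3y had 260 and 307, and the other libraries had 935 to 1682 of Xist and 1 to 7 of Ddx3y.

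The inducible HSP70 genes did not pass the test between the 2 origins and differed between pairs. Values are given throughout in the order E591, E592, E604 and E606 and then N591, N592, N604 and N606. Hspa1a had 1054, 597, 467 and 429 CPM in EcTM libraries and 1114, 629, 465 and 501 CPM in non-EcTM libraries. Hspa1b had 1135, 607, 513 and 438 CPM in EcTM libraries and 1219, 626, 437 and 485 CPM in non-EcTM libraries. In both genes E591 and N591 are the highest of their groups, E592 and N592 come second, and the ranges of the 2 groups overlap almost wholly. Hspa1a averaged 637 ± 287 CPM over EcTM libraries and 677 ± 300 CPM over non-EcTM libraries (SD, n = 4 each). The log2 fold change of EcTM over non-EcTM, fitted with the pair as a block, was -0.09 ± 0.08 (SE) with a 95% interval from -0.25 to 0.07, and the adjusted p of edgeR's quasi-likelihood test was 0.964. Hspa1b averaged 673 ± 316 CPM over EcTM libraries and 692 ± 361 CPM over non-EcTM libraries. The log2 fold change of Hspa1b was -0.02 ± 0.08, with an interval from -0.19 to 0.15 and an adjusted p of 0.997 in the same edgeR fit.

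**Figure D1:**
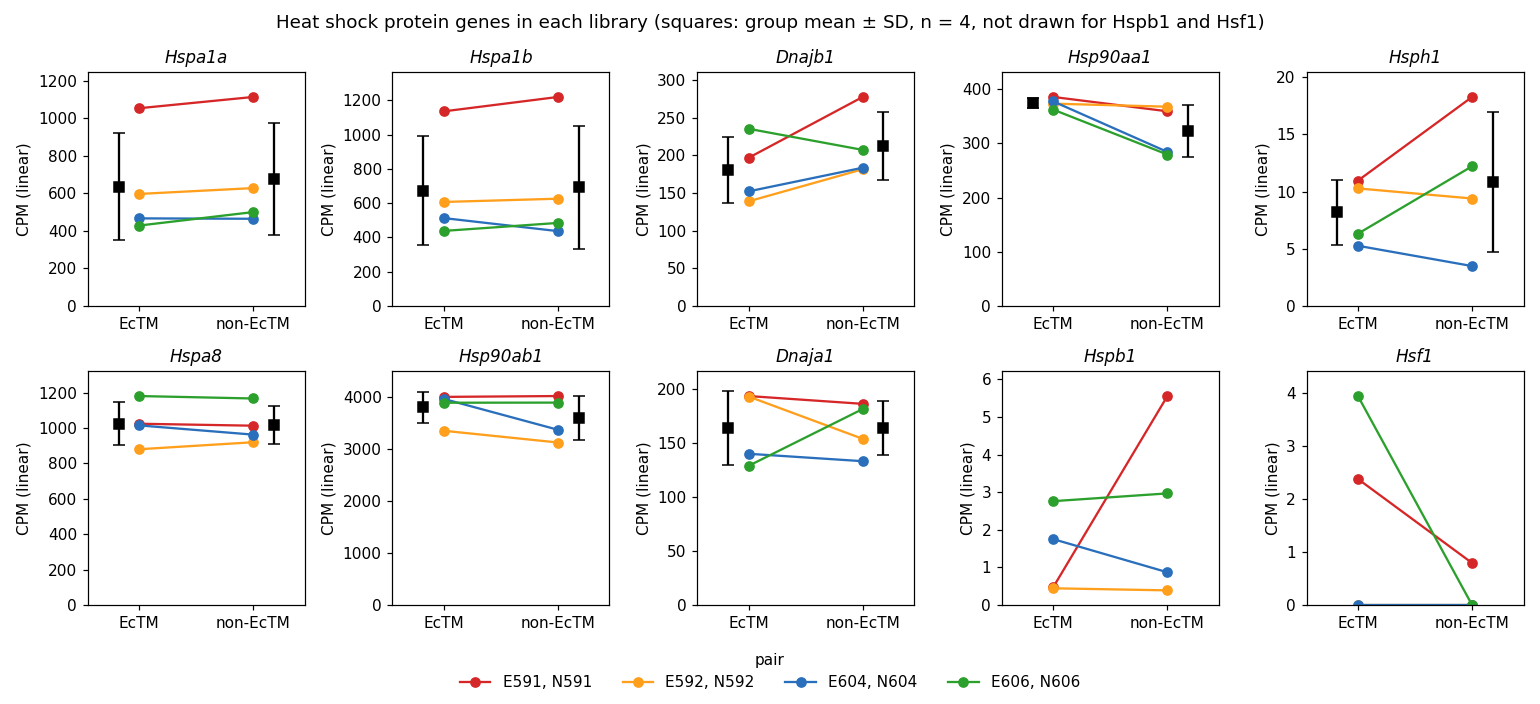
CPM of each member on linear axes, EcTM left and non-EcTM right, with a line joining the libraries of each pair and a square with its bar for the mean ± SD of a group (n = 4, not drawn for Hspb1 and Hsf1). The red E591 and N591 points of Hspa1a and Hspa1b lie at 1054 to 1219 CPM, while Hspa8 and Hsp90ab1 stay within a narrow band.

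Hspa8, the constitutive HSP70 that also uncoats clathrin vesicles, had 1024, 880.2, 1015 and 1181 CPM in EcTM libraries and 1013, 919.8, 963 and 1167 CPM in non-EcTM libraries. E606 and N606 were the highest of their groups and E592 and N592 the lowest, and the groups overlap. Its means were 1025 ± 123 CPM over EcTM libraries and 1016 ± 108 CPM over non-EcTM libraries (SD, n = 4 each), and its log2 fold change was 0.01 ± 0.07 with an interval from -0.13 to 0.15 (edgeR adjusted p = 0.998). Hsph1, the nucleotide exchange factor of HSP70, was scarce, with 10.96, 10.3, 5.26 and 6.32 CPM in EcTM libraries and 18.3, 9.39, 3.49 and 12.2 CPM in non-EcTM libraries. These values rest on 8 to 46 reads a library, and N591 is the highest. The log2 fold change of Hsph1 was -0.28 ± 0.61, and its interval from -1.54 to 0.99 leaves a change of either sign within reach (edgeR adjusted p = 0.990).

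Hsp90ab1, the constitutive HSP90, had the most reads of all members. It stood at 3994, 3344, 3954 and 3882 CPM in EcTM libraries and 4010.0, 3119, 3362 and 3884 CPM in non-EcTM libraries. E592 and N592 were the lowest of their groups. Its means were 3793 ± 303 CPM over EcTM libraries and 3594 ± 423 CPM over non-EcTM libraries (SD, n = 4 each), with a log2 fold change of 0.08 ± 0.05, an interval from -0.02 to 0.18 and an edgeR adjusted p of 0.941. Hsp90aa1, the stress-inducible form, had 386, 374, 378 and 362 CPM in EcTM libraries and 359, 368, 284 and 279.6 CPM in non-EcTM libraries. EcTM was the higher library in 4 of 4 pairs, by a small margin over N592 and by more over N604 and N606, and E606 lies below N592, so the groups overlap. Hsp90aa1 averaged 375 ± 9.73 CPM over EcTM libraries and 323 ± 47.3 CPM over non-EcTM libraries (SD, n = 4 each). Its log2 fold change of 0.23 ± 0.10, with an interval from 0.02 to 0.43, had an unadjusted p of 0.0326 and an adjusted p of 0.902 in edgeR, so it did not pass. A gene was higher in EcTM in all 4 pairs for 7.26% of the tested genes.

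The J-protein genes overlapped between the groups. Dnajb1, the stress-induced partner of HSP70, had 197, 139, 152 and 235 CPM in EcTM libraries and 278, 182, 184 and 207 CPM in non-EcTM libraries. N591 was the highest library, and the EcTM library was the higher one in 1 of 4 pairs. Dnajb1 averaged 181 ± 44.0 CPM over EcTM libraries and 213 ± 44.9 CPM over non-EcTM libraries (SD, n = 4 each), with a log2 fold change of -0.24 ± 0.13, an interval from -0.51 to 0.03, an unadjusted p of 0.0767 and an adjusted p of 0.931 in edgeR. Dnaja1, a constitutive J protein that carries a farnesyl anchor, had 194, 193, 140.3 and 129 CPM in EcTM libraries and 187, 154, 133 and 182 CPM in non-EcTM libraries. Its group means were both 164 CPM (SD 34.3 in EcTM and 24.9 in non-EcTM, n = 4 each), with a log2 fold change of -0.01 ± 0.14, an interval from -0.30 to 0.28 and an edgeR adjusted p of 0.998.

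Hspb1 and Hsf1 were at the limit of detection. Hspb1, which holds unfolding proteins in solution without ATP, had 1, 1, 4 and 7 reads in EcTM libraries and 14, 1, 2 and 9 reads in non-EcTM libraries. The highest library is N591 and the groups overlap. Hsf1 had 5, 0, 0 and 10 reads in EcTM libraries and 2, 0, 0 and 0 reads in non-EcTM libraries. E592, N592, E604, N604 and N606 held no Hsf1 read, and 3 counts, the limit that a count of 0 allows, stand at 1.02 to 1.39 CPM over the 8 libraries.

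Between the origins, then, 0 of the 8 tested members were called by edgeR at an adjusted p of 0.05, and 1 of them, Hsp90aa1, fell under 0.05 before adjustment. Over all tested genes 0.013% were called, which is 1 gene of 7667, and 5.4% had an unadjusted p under 0.05. DESeq2 called 0 of the 7 members to which it gave an adjusted p, 1 of them at p under 0.05 before adjustment. In limma-voom the call count was 0 of 8, with 2 under 0.05 before adjustment. DESeq2 called 0.977% of the 2660 genes to which it gave an adjusted p, which are fewer than it tested. The share in limma-voom was 0.248% of the genes tested. In 0 of the 8 members did the groups fail to overlap, against 2.7% of all tested genes, and 0 of the 8 were lower in EcTM in all 4 pairs, against 6.93%. The median log2 fold change over all tested genes was -0.01.

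The spread between pairs was tested in the same edgeR fit, with its 3 pair terms jointly. It was passed by 3 of the 8 members, Hspa1a, Hspa1b and Hsp90ab1, against 3.04% of all tested genes. Hspa1a and Hspa1b, 99.4% identical over their reading frames, cannot be counted as independent calls, and their sum was not tested. The adjusted p was 2.63e-08 for Hspa1a, 1.19e-08 for Hspa1b and 0.0376 for Hsp90ab1. Hspa8 had an adjusted p of 0.114, Dnajb1 0.174, Dnaja1 0.619, Hsp90aa1 0.769 and Hsph1 0.800 in edgeR. Hspa8 passed in DESeq2 and in limma-voom, with adjusted p of 0.00184 and 0.0124. There DESeq2 called 5.21% of the 8489 genes to which it gave an adjusted p, and limma-voom called 3.9% of genes tested. This comparison describes the pairs of the titles and no stated condition. The pair of E592 also differs from the others in Xist and Ddx3y, so a difference by sex cannot be told apart from that pair.

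Means over the 2 libraries of a pair show the sizes. Levels are means of CPM, and each span was taken from pair means of log2 CPM (prior count 2). Hspa1a stood at 1084 CPM in the pair of E591, 613 in that of E592, 466 in that of E604 and 465 in that of E606, a span of 2.34-fold. Hspa1b stood at 1177, 616, 475 and 461 CPM in the same order, a span of 2.55-fold. The highest pair mean of the other genes exceeded the lowest by 1.47-fold in Dnajb1, 1.39-fold in Dnaja1, 1.30-fold in Hspa8, 1.24-fold in Hsp90ab1 and 1.17-fold in Hsp90aa1. Hsph1 spanned 2.93-fold on few reads, with pair means of 14.6 CPM at the highest and 4.38 CPM at the lowest. The inducible HSP70 genes thus differed between pairs by more than between origins. The SD of the 4 pair means of log2 CPM was 0.58 in Hspa1a and 0.63 in Hspa1b. Their log2 fold changes between origins were -0.09 and -0.02. The SD of the within-pair log2 difference, which shows how even that difference is and not its size, was 0.10 in Hspa1a and 0.17 in Hspa1b.

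Contrasts of 1 pair with another, chosen after the values were seen, place the difference at E591 and N591. Hspa1a was higher in this pair than in E592 and N592 by 0.82 ± 0.11 on the log2 scale (edgeR adjusted p = 9.56e-05), where 1.24% of tested genes were called. It was higher than in E604 and N604 by 1.22 ± 0.11 (adjusted p = 9.24e-08, 1.34% called) and than in E606 and N606 by 1.22 ± 0.11 (adjusted p = 1.55e-07, 1.51% called). Hspa1b was higher in E591 and N591 than in the pairs of E592, E604 and E606 by 0.93, 1.31 and 1.35, with edgeR adjusted p of 2.74e-05, 6.38e-08 and 6.36e-08. Among the other 3 pairs neither gene passed, with edgeR adjusted p of 0.0874 to 0.997 for Hspa1a and 0.117 to 0.997 for Hspa1b (1.49%, 0.848% and 0.73% of genes called for the pair of E592 against that of E604, E592 against E606 and E604 against E606). Without E591 and N591 the comparison of pairs called 0 of 8 members in edgeR, with adjusted p of 0.110 for Hspa1a and 0.131 for Hspa1b and 1.9% of genes called. Before adjustment, 5 of the 8 members and 826 of 7772 genes still had a p under 0.05 in that edgeR fit. With all pairs these counts were 5 of 8 and 862 of 7667, so some spread between the remaining pairs is not excluded. With N591 alone left out both genes were called, as were 2.33% of all genes, and with E591 alone left out both were called, as were 2.43% of all genes. Hsp90ab1 followed another order, at 4002 CPM in the pair of E591, 3231 in that of E592, 3658 in that of E604 and 3883 in that of E606. It was higher in E591 and N591 than in E592 and N592 by 0.31 ± 0.07 (edgeR adjusted p = 0.0203), and it no longer passed the test between pairs once the pair of E591, E592 or E606 was left out (adjusted p = 0.164, 0.671 and 0.0575).

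**Figure D2:**
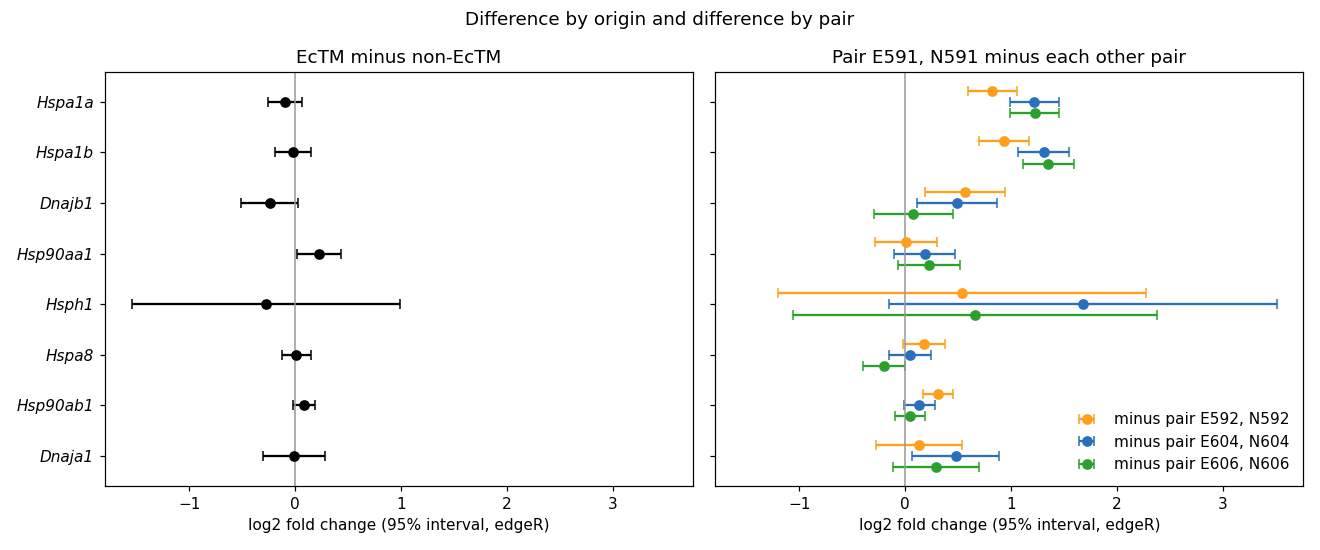
Log2 fold changes with 95% intervals from edgeR for the 8 tested members, EcTM minus non-EcTM on the left and the pair of E591 and N591 minus each other pair on the right. The intervals of Hspa1a and Hspa1b include 0 on the left and lie above 0.5 on the right.

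An exact permutation test on each gene asked how often the 8 libraries, split into 4 pairs in all 105 ways, gave pairs as tight as the title pairs. Its smallest possible p is 0.00952. The exact p was 0.0286 for Hspa1a, 0.0286 for Hspa1b and 0.0190 for Hspa8. It was 0.0857 for Hsph1, 0.124 for Hsp90ab1, 0.248 for Dnajb1, 0.267 for Dnaja1 and 0.552 for Hsp90aa1. These p-values are one-sided and not adjusted for the 8 genes. Splits that join libraries of the same group are included, and the group is not taken out as it is in edgeR. A difference between the groups therefore loosens the title pairs in this test.

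The SD of log2 CPM over the 8 libraries was 0.54 for Hspa1a and 0.59 for Hspa1b, and 0.32 for Dnajb1, 0.25 for Dnaja1, 0.19 for Hsp90aa1, 0.15 for Hspa8 and 0.14 for Hsp90ab1. Without E591 and N591 it was 0.22 for both Hspa1a and Hspa1b, and without E606 and N606 it was 0.089 for Hspa8. The SD of the inducible Hsp90aa1 was a little above those of the constitutive Hspa8 and Hsp90ab1 and below that of the constitutive Dnaja1. Among the 1442 genes whose log2 CPM averaged 7 or more, which include these 7 and leave out Hsph1, the median SD was 0.18 and the median span of pair means on the log2 scale was 0.30. Of those genes, 98.3% had a smaller span of pair means than Hspa1a and 98.8% a smaller one than Hspa1b. The share was 89.9% for Dnajb1, 82.5% for Dnaja1, 68.6% for Hspa8, 53.1% for Hsp90ab1 and 30.8% for Hsp90aa1. By SD, the share of genes with a smaller value was 98.3% for Hspa1a, 98.8% for Hspa1b and 93.3% for Dnajb1. It was 81.6% for Dnaja1, 54.0% for Hsp90aa1, 33.6% for Hspa8 and 30.3% for Hsp90ab1, so the 2 measures rank Hsp90aa1 differently.

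**Figure D3:**
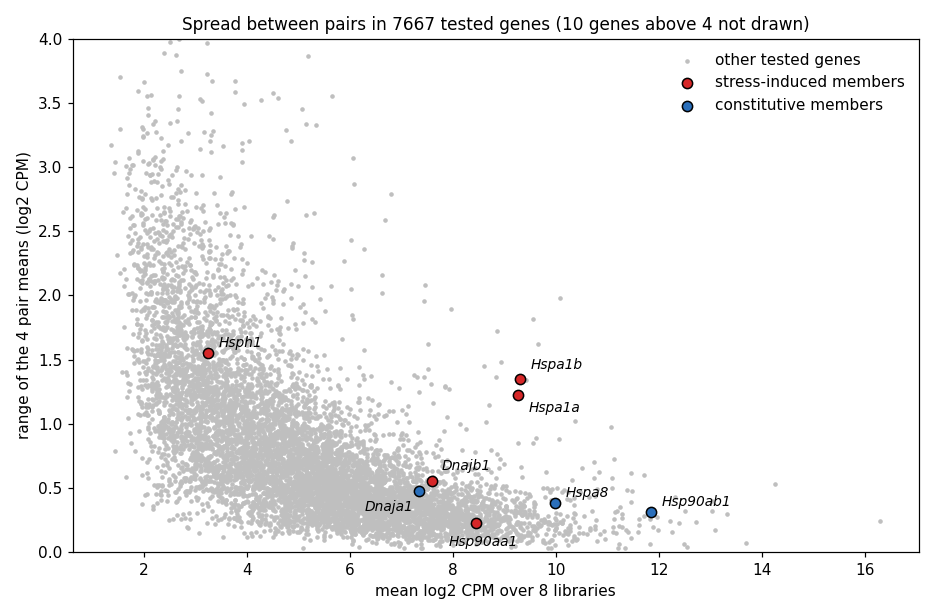
Each tested gene by its mean log2 CPM over 8 libraries and by the range of its 4 pair means in log2 CPM, with stress-induced members in red and constitutive members in blue. Hspa1a and Hspa1b lie above most genes of their level, and Hsp90aa1 lies low among them.

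Ratios within a library remove its depth. They do not remove the effect of how reads shared by Hspa1a and Hspa1b were counted, which is unknown. Counts of Hspa1a plus Hspa1b over those of Hspa8 were 2.14, 1.37, 0.965 and 0.734 in EcTM libraries and 2.30, 1.36, 0.937 and 0.844 in non-EcTM libraries. The ratio takes the same order of pairs in both groups, with E591 and N591 highest, and averaged 1.30 ± 0.616 in EcTM and 1.36 ± 0.667 in non-EcTM (SD, n = 4 each). Counts of Hsp90aa1 over Hsp90ab1 were 0.0966, 0.112, 0.0955 and 0.0934 in EcTM libraries and 0.0896, 0.118, 0.0846 and 0.0720 in non-EcTM libraries. This ratio too takes the same order of pairs in both groups, but here E592 and N592 are the highest. E591 and N591 come next and do not stand out. Counts of Dnajb1 over Dnaja1 were 1.01, 0.718, 1.08 and 1.82 in EcTM libraries and 1.49, 1.18, 1.38 and 1.14 in non-EcTM libraries, in no shared order. Counts of Hspa1a over Hspa1b stayed between 0.911 and 0.985 in EcTM and between 0.914 and 1.06 in non-EcTM. Per kilobase of transcript, on the scale of levels, the mean over 8 libraries was 1466 CPM for Hsp90ab1, 243 for Hspa1b, 221 for Hspa1a, 106 for Hsp90aa1 and 2.11 for Hspb1, the 5 members with 1 curated transcript. The values of Hspa1a and Hspa1b depend on the same unknown counting step.

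**Figure D4:**
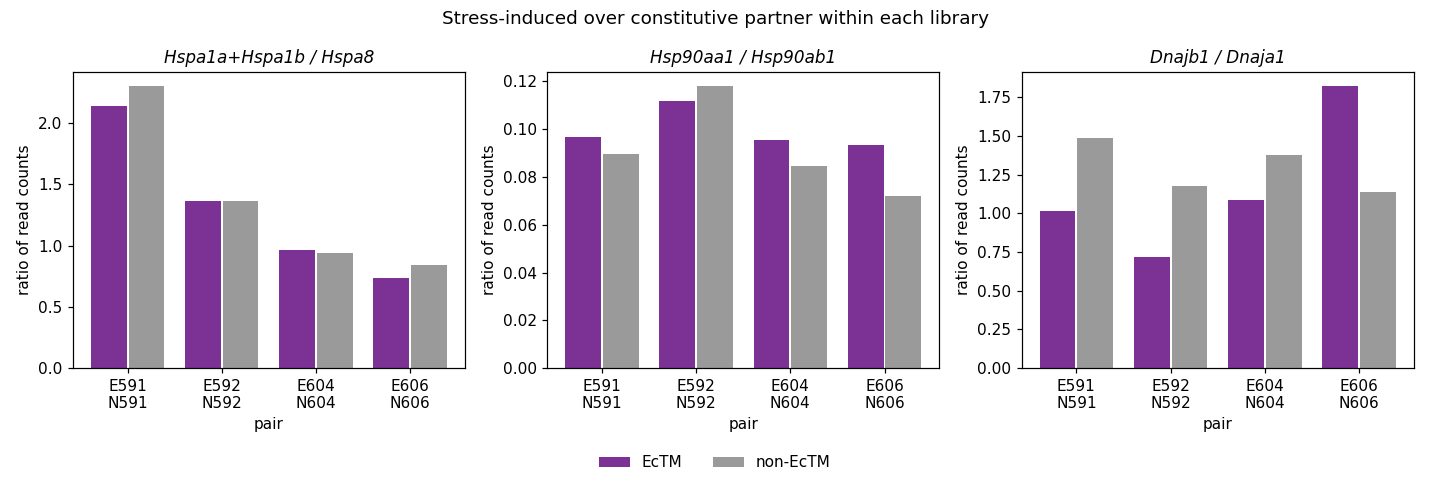
Ratios of read counts by pair, EcTM in purple and non-EcTM in grey, on axes that start at 0, with 1 bar per library. The inducible over constitutive HSP70 ratio is highest in E591 and N591, at 2.14 and 2.30, and the HSP90 and J-protein ratios do not share that order.

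Genes whose log2 CPM ran most like that of Hspa1a over the 8 libraries were sought among 5116 genes whose log2 CPM averaged 4 or more. Apart from Hspa1b (Pearson r = 0.993), they were Nabp1 (0.969), H2-T23 (0.962), Hcar2 (0.956), Fam65a (0.946), Klf2 (0.941), Cpt1a (0.940) and Atp8b2 (0.937). With only 8 libraries of which 2 stand high, these values describe the libraries and no test was made. Of the members, Dnaja1 had an r of 0.724 with Hspa1a, Hsp90aa1 0.411, Dnajb1 0.392, Hsp90ab1 0.267 and Hspa8 -0.231.

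The wider chaperone system was read against a background of 0.013% of genes called between the origins, so that a list of this size with no call is not a result about the list. Of 21 other known targets of HSF1, 16 were tested and 0 were called by edgeR, with a median log2 fold change of 0.02. Of 26 co-chaperones of HSP70 and HSP90, 22 were tested and 0 were called, with a median of -0.02. Of 14 genes of the chaperonin TRiC and of prefoldin, 12 were tested and 0 were called, with a median of 0.05. Of 10 mitochondrial chaperone genes, 9 were tested and 0 were called, with a median of 0.09. Of 4 genes of the HSF family and 8 of other small heat shock proteins, 2 and 2 were tested and 0 were called. DESeq2 and limma-voom also called 0 in each of these 6 lists. At an unadjusted p under 0.05, edgeR and DESeq2 each had 1 gene of the 6 lists, in the chaperonin list, and limma-voom had 2, where 5.4% of all tested genes fell under it in edgeR. In edgeR that gene is Cct2, a TRiC subunit, with 240.1, 256, 214 and 254 CPM in EcTM libraries and 210.1, 167, 201 and 199 CPM in non-EcTM libraries. The EcTM library was the higher one in 4 of 4 pairs and the groups did not overlap, with a log2 fold change of 0.31 ± 0.12, an unadjusted p of 0.0153 and an adjusted p of 0.871 in edgeR, so it did not pass.

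Between pairs, 2 of the 16 tested HSF1 targets and 1 of the 22 co-chaperones passed in edgeR, against 3.04% of all tested genes. Bag3, which joins HSP70 to selective autophagy, had 299.7, 207, 153 and 189 CPM in EcTM libraries and 284, 171, 198 and 209.9 CPM in non-EcTM libraries (adjusted p = 0.0385). E591 and N591 were the highest of their groups, as for Hspa1a. Hmox1, which degrades heme and is also driven by other factors, had 968, 1200.1, 1257 and 1423 CPM in EcTM libraries and 1042, 1279, 1144 and 1351 CPM in non-EcTM libraries (adjusted p = 0.0272). It was lowest in E591 and N591 and highest in E606 and N606. Fkbp5, an HSP90 co-chaperone induced by glucocorticoids, had 567, 319, 605 and 299 CPM in EcTM libraries and 482, 366, 593 and 246 CPM in non-EcTM libraries (adjusted p = 7.50e-06). The pairs of E591 and E604 were high and those of E592 and E606 low, an order that Hspa1a does not share. The chaperonin, mitochondrial, HSF and small heat shock protein lists had 0 called between pairs by edgeR, DESeq2 and limma-voom, and edgeR had 0 in them at an unadjusted p under 0.05.

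Other genes and markers are given beside the Hspa1a and Hspa1b values. Of 20 immediate-early genes known to be raised by tissue dissociation, 18 were tested. Between the origins edgeR called 0 of them (0.013% of all genes), with 7 at an unadjusted p under 0.05 (5.4% of all genes). DESeq2 called 2 (0.977% of the genes to which it gave an adjusted p) and limma-voom 3 (0.248% of genes). Between pairs edgeR called 7 (3.04% of all genes). Of these 7, Fos, Egr1, Dusp1, Btg2, Nr4a1 and Klf2 were highest in E591 and N591 of their groups, and Klf4 was highest in E592 and N592. Klf2, also among the genes most like Hspa1a, had 3855, 2737, 2560.1 and 2655 CPM in EcTM libraries and 3602, 2787, 2306 and 2405 CPM in non-EcTM libraries, highest in E591 and N591 (adjusted p between pairs = 5.56e-06 in edgeR). Summed over the list, these genes stood at 73264, 63292, 58808 and 65182 CPM in EcTM libraries and 68016, 62093, 55045 and 59091 CPM in non-EcTM libraries. Markers of endothelium, 10 genes of which 5 were tested and Pecam1, Tek and Emcn were at 0, summed to 337, 52.7, 43.0 and 237 CPM in EcTM libraries and 926, 90.4, 150 and 123 CPM in non-EcTM libraries. Markers of fibroblasts, 8 genes with Pdgfra and Postn at 0, summed to 126, 32.2, 42.5 and 24.5 CPM in EcTM libraries and 188, 22.3, 25.3 and 38.9 CPM in non-EcTM libraries. Mural markers, 8 genes with Myh11 and Pdgfrb at 0, summed to 78.6 to 99.6 CPM in EcTM libraries and 75.5 to 289.9 CPM in non-EcTM libraries, and cardiomyocyte markers, 10 genes with Myh6, Tnnt2 and Pln at 0, to 64.9 to 124 CPM in EcTM libraries and 81.0 to 160.0 CPM in non-EcTM libraries. The 4 marker lists were each highest in E591 among EcTM libraries and in N591 among non-EcTM libraries. Between pairs edgeR called 4 of 5 tested endothelial, 2 of 3 fibroblast, 1 of 5 mural and 0 of 5 cardiomyocyte markers (3.04% of all genes). Of the 13 tested macrophage markers it called 4, Fcgr1, Cd14, Lyz2 and Cx3cr1, so their steadier sum does not describe each marker. The part of these lists in the Hspa1a and Hspa1b result was not tested.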

How the data were processed

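Total RNA of the sorted cells was extracted with the RNeasy plus micro kit and made into libraries with a stranded kit for picogram inputs, per the labels' protocols. The submitters' processing notes name bcl2fastq 2.17, TopHat, DESeq2, R 3.2 and mm10. How reads were counted (program, annotation, strand) is a step not given in the sources used here. Per gene, the authors deposited raw read counts, and beside them values on a log2 scale headed CPM, which were not used.

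The counts were fitted with edgeR 4.0.16 in R 4.3.3, using TMM scaling, filterByExpr (7667 of 24516 genes, 99.3% of counts) and the quasi-likelihood F-test, with terms for pair and group. P-values were adjusted by Benjamini-Hochberg over all tested genes, with a threshold of 0.05. The common biological coefficient of variation was 0.304. Only 3 residual degrees of freedom come from the libraries, and the spread of a gene is estimated in large part from other genes. CPM use TMM library sizes, and log2 CPM a prior count of 2.

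The pairing comes from the digits in the titles. After removal of group means, libraries of a pair correlated across genes at 0.122 to 0.186, and others at -0.127 to 0.0532. Each of the 8 libraries correlated best with its own partner.

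DESeq2 1.42.0, limma-voom (limma 3.58.1), other scalings and filters, leave-one-out fits and a fit with no replicate block were the alternatives. Promoters came from RefSeq and transcripts from GENCODE, both on GRCm38. The members, lists and comparisons were chosen with earlier results of these data known. All 10 members are named, up to 4 genes of each other list by smallest unadjusted p between groups or by a call between pairs, and 8 genes by likeness to Hspa1a.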

Additional observations from a re-analysis of the deposited data

Results flagged for a closer look

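Hsf1 in the non-EcTM group stood at 0.794 CPM in N591, from 2 reads, and at 0 in the other 3 libraries, so that the gap of N591 to the rest took up the whole range of the group. In the EcTM group, E591 and E606 held 5 and 10 reads. Among 28 groups of 4 libraries checked in this way it was the only one set apart, and chance sets apart about 1 in 20 groups. That rate does not apply to counts at the floor, where a group with reads in only 1 library is always set apart.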

How the results depend on the processing

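The count of members called between the origins was 0 in every one of the 14 alternative fits. Over all genes, 1 was called with the replicate block, against 0 with no replicate block, 26 in DESeq2, 19 in limma-voom, 10 with no filter, 0 among genes with 1 curated transcript, and 1 to 2 in leave-one-out fits. Between pairs 233 genes were called, against 442 in DESeq2, 350 with no filter and 146 to 195 in leave-one-out fits. The members called between pairs ranged from 0 to 3 in leave-one-out fits, and the 0 came without the pair of E591 and N591. The SD over libraries, leaving out each pair, ranged from 0.22 to 0.63 for Hspa1a, 0.22 to 0.69 for Hspa1b, 0.10 to 0.16 for Hsp90ab1, 0.089 to 0.18 for Hspa8 and 0.46 to 0.80 for Hsph1, and the low end of the first pair came without E591 and N591.

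Log2 fold changes of EcTM over non-EcTM that changed sign were all close to 0 and did not pass. In leave-one-out fits they ranged from -0.10 to 0.020 for Hspa1b, from -0.012 to 0.039 for Hspa8 and from -0.12 to 0.15 for Dnaja1. Hsp90ab1 missed the threshold between pairs with the pair fitted without the group (edgeR adjusted p = 0.136) and without N591 (0.183) or E591 (0.0704). The fits without N591 or E591 alone and the pairwise contrasts between pairs were chosen after seeing the data. The cause of these shifts was not tested. Hsph1, Hspb1 and Hsf1 rest on few reads, at most 46, 14 and 10 a library. Hsph1 and Hsf1 are among the members with several curated transcripts, and genes of that kind had lower totals. Whether depth or the counting step keeps their reads low was not tested.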
